A study of Mus musculus with 16 samples.

Results

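*Bdh1*, *Acat1* and *Slc16a1* encode a pair of enzymes at either end of ketone body synthesis and the carrier through which ketone bodies cross the cell membrane. They were chosen by symbol and are 3 of the 52143 genes in the liver count table. The study asked what loss of the receptor FGFR4 from the liver does in mice on a high-fat diet. Male C57BL6/J mice aged 6 weeks were placed on chow or on a high-fat diet (HFD, 60% fat) for 12 weeks, and over the same time received a subcutaneous injection every 2 weeks of either 0.9% saline or 3 mg/kg of an siRNA against *Fgfr4*. Liver RNA was sequenced from 4 mice in each of 4 groups: Chow (chow and saline), Chow/FGFR4 KD (chow and siRNA), HFD (HFD and saline) and HFD/FGFR4 KD (HFD and siRNA). No group carried an engineered allele. The siRNA was joined to GalNAc, a sugar that hepatocytes take up, so the knockdown (KD) was directed at hepatocytes. The control was saline and not an siRNA without a target, so a response to the siRNA itself and a response to loss of FGFR4 cannot be told apart. Mice were kept 4 to a cage, and the labels do not say which mice shared one.

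Ketone bodies are made in the mitochondria of hepatocytes from acetyl-CoA, mostly from the oxidation of fatty acids, and are burned by muscle, heart and brain. The thiolase encoded by *Acat1* joins acetyl-CoA to acetoacetyl-CoA and also works in the reverse direction, in ketone body use and in the breakdown of isoleucine. *Bdh1* encodes the dehydrogenase of the inner mitochondrial membrane that turns acetoacetate into beta-hydroxybutyrate and back. *Slc16a1* encodes the monocarboxylate carrier MCT1, which moves lactate, pyruvate and ketone bodies together with a proton and is found in many cell types. The liver makes ketone bodies but lacks much of the enzyme encoded by *Oxct1*, with which other tissues use them. Their production rises in fasting and when fat is the main fuel.

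In GRCm38, with the GENCODE M21 annotation, *Bdh1* (ENSMUSG00000046598) lies on the plus strand at chr16:31422280-31458901 and has 7 annotated transcripts. *Acat1* (ENSMUSG00000032047) lies on the minus strand at chr9:53580522-53610382 with 3 transcripts, and *Slc16a1* (ENSMUSG00000032902) on the plus strand at chr3:104638668-104658462 with 1 transcript. Of the sequence words of 31 bases in the transcripts of *Acat1* and *Slc16a1*, 0% occurred in another gene. For *Bdh1* this share was 12.3%, of which nearly all lay in Gm15743, an antisense gene over it that had 0 or 1 counts in every library. RefSeq start sites were available for 2 of the 3 genes. The 250 bases before each start (GRCm38.p6, 5′ to 3′) are shown for the dehydrogenase gene that rose on HFD and for the carrier gene that gave no call. Capitals mark a match to CACGTG, the E-box letters bound by several helix-loop-helix factors.
Bdh1 upstream start, chr16:31422047-31422296, plus strand: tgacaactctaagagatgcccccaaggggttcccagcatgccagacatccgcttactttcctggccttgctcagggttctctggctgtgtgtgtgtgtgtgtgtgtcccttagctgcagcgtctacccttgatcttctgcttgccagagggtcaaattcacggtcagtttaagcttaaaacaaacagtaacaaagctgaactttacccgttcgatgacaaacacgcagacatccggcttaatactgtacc
Bdh1 downstream start, chr16:31428503-31428752, plus strand: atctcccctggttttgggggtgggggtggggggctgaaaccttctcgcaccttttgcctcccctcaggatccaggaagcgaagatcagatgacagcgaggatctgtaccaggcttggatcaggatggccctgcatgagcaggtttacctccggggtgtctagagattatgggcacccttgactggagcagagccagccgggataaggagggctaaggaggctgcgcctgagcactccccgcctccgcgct
Slc16a1 start, chr3:104638414-104638663, plus strand: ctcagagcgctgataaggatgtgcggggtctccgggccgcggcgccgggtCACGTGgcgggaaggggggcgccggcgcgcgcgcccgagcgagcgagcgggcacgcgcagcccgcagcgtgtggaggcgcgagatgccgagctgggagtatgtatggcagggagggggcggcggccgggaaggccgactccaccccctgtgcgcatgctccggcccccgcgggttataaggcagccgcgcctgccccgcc
The *Slc16a1* stretch was the richer in G and C, at 76.4% against 49.6% and 60.8% for the upstream and downstream *Bdh1* starts, and held 37 CG pairs against 7 and 9. Both *Bdh1* starts lie within the annotated gene, the upstream one shortly after its first base, so both stretches overlap it. Both strands were searched for CACGTG, for the nuclear receptor half-site AGGTCA and for DR1, a direct repeat of it spaced by 1 base. Any match to the repeat also holds the half-site. CACGTG was found once, in the *Slc16a1* stretch, 195 to 200 bases before the start, and reads the same on both strands. It occurred in 6.02% of 32851 RefSeq stretches of the same length, AGGTCA in 14% and the repeat in 0.0335%. Neither *Bdh1* stretch held any of these letters, nor did the *Slc16a1* stretch hold the half-site.

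The 16 libraries held between 3445949 and 5976449 estimated counts. *Fgfr4* was at 29.7 ± 4.57 CPM (mean ± SD, n = 4; the count scaled to library size and composition) in Chow and 4.78 ± 1.60 in Chow/FGFR4 KD, and at 25.7 ± 4.25 in HFD and 3.74 ± 1.35 in HFD/FGFR4 KD, and all 8 siRNA libraries lay below all 8 saline libraries. Markers of hepatocytes were high in every library, with a summed level from 65878 to 83671 CPM over 7 genes. The library HFD/FGFR4 KD 1 stood apart. On the first principal component, which held 46.8% of the variance of the 500 most variable genes, its score was -6.56 against 16.3 to 19.9 in the rest of its group, and the chow libraries of both treatments ran from -22.5 to -5.00. Changes of the 3 genes that use it, and called changes of other pathway genes, are given with and without it. Of the genes, 11324 were tested with limma-voom, and those with p under 0.05 whose Benjamini-Hochberg adjusted p was under 0.25, the threshold of the study, are named as called. The p-values measure the spread between these mice.

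**Figure D1:**
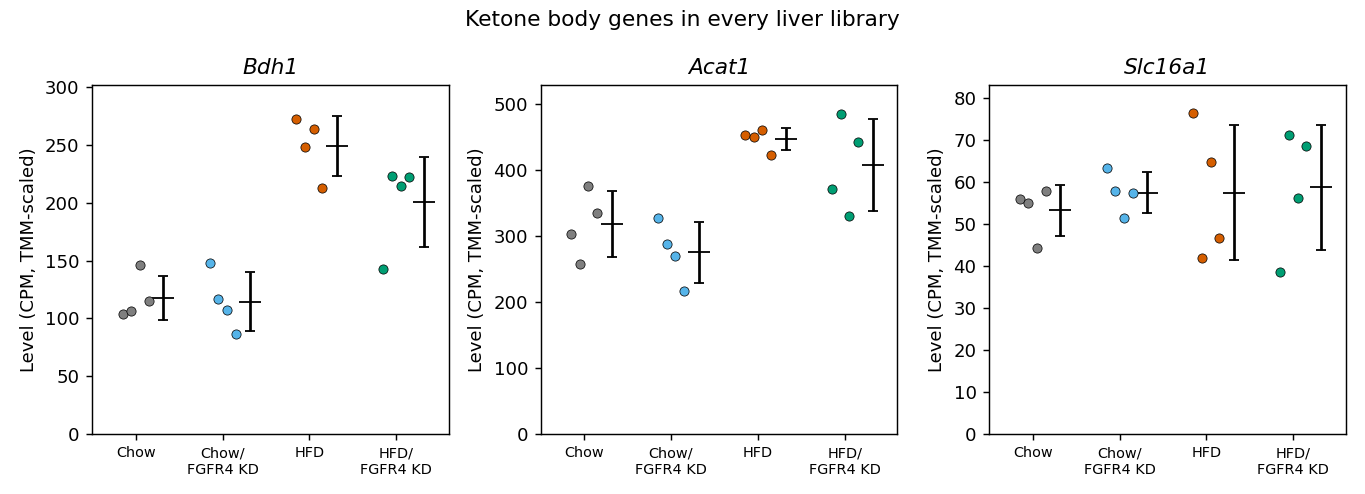
Level of each gene in every liver library (CPM, linear axis from 0). Circles are libraries, and the bar beside them is the mean ± SD of the group (n = 4). All 4 HFD libraries lie above all 4 Chow libraries for Bdh1 and Acat1, while the groups overlap for Slc16a1, and HFD/FGFR4 KD 1 is the low point of its own group for Bdh1 (143 CPM).

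*Bdh1* mRNA was higher on HFD than on chow, with or without FGFR4 KD. Its level in the Chow libraries was 104, 107, 146 and 115 CPM and in the HFD libraries 273, 248, 264 and 213 CPM (replicates 1 to 4). Every HFD library was above every Chow library, and the highest of the chow-fed saline mice, Chow 3, stayed well short of the lowest HFD library. The means were 118 ± 19.3 and 249 ± 26.2 CPM (SD, n = 4), a 2.12-fold ratio, and rested on 409 to 719 and 1055 to 1891 counts per library. The log2 change was 1.09 ± 0.17 (SE; 95% interval 0.74 to 1.44; adjusted p = 0.00129), which placed *Bdh1* at rank 48 by p.

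Among siRNA-injected mice, *Bdh1* was at 148, 117, 107 and 86.6 CPM in Chow/FGFR4 KD and at 143, 223, 214 and 223 CPM in HFD/FGFR4 KD. The ranges met only through HFD/FGFR4 KD 1, which lay just below Chow/FGFR4 KD 1, and the other HFD/FGFR4 KD libraries lay close together. The means were 115 ± 25.4 and 201 ± 38.8 CPM (SD, n = 4), a 1.75-fold ratio with a log2 change of 0.81 ± 0.17 (SE; interval 0.45 to 1.16; adjusted p = 0.0176). Without HFD/FGFR4 KD 1 the change was 0.96 (adjusted p = 0.00288).

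*Acat1* rose on HFD in both arms as well, by less. It was at 303, 258, 376 and 335 CPM in Chow and at 452, 450, 461 and 423 CPM in HFD. The groups did not overlap, and the HFD libraries were the tightest of any group for this gene. Means of 318 ± 49.9 and 446 ± 16.4 CPM (SD, n = 4) gave a 1.40-fold ratio and a log2 change of 0.50 ± 0.14 (SE; interval 0.21 to 0.80; adjusted p = 0.0317). Under the siRNA, *Acat1* was at 327, 287, 269 and 217 CPM on chow and at 371, 485, 330 and 442 CPM on HFD. These groups did not overlap either, although Chow/FGFR4 KD 1 and HFD/FGFR4 KD 3 nearly touched. Means of 275 ± 45.8 and 407 ± 69.7 CPM (SD, n = 4) gave 1.48-fold and a log2 change of 0.57 ± 0.14 (SE; interval 0.28 to 0.86; adjusted p = 0.0365), or 0.61 (adjusted p = 0.0308) without HFD/FGFR4 KD 1.

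The carrier gene gave no such call. *Slc16a1* was at 55.97, 55.04, 44.2 and 57.8 CPM in Chow and at 76.5, 41.9, 64.7 and 46.6 CPM in HFD. The HFD libraries fell on both sides of the Chow libraries, so that the ranges overlapped throughout. The means were 53.2 ± 6.12 and 57.4 ± 16.1 CPM (SD, n = 4) with a log2 difference of 0.08 (interval -0.33 to 0.49; adjusted p = 0.822). With the siRNA its levels were 63.3, 57.8, 51.5 and 57.3 CPM on chow and 38.6, 71.3, 56.3 and 68.7 CPM on HFD, with HFD/FGFR4 KD 1 again the lowest. The means of 57.5 ± 4.82 and 58.7 ± 14.9 CPM (SD, n = 4) differed by -0.02 on the log2 scale (interval -0.43 to 0.40; adjusted p = 0.972), and by 0.17 (adjusted p = 0.612) without that library. At their upper ends, 0.49 and 0.40, the intervals come near the changes of *Acat1*.

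So 2 of the 3 genes were called higher in each diet comparison. Over all genes tested, 26% were called for HFD in saline-injected mice, 13.3% higher, and 20.2% for HFD in siRNA-injected mice, 10.1% higher. In saline-injected mice, groups did not overlap with HFD above in 8.33% of genes, and in siRNA-injected mice in 5.93%. With library totals in place of the composition scaling, the median log2 change of all genes shifted by 0.28 in saline-injected mice and by 0.15 in siRNA-injected mice, and calls went from 1506 higher and 1433 lower to 3967 higher and 339 lower in the first and from 1148 and 1145 to 1888 and 391 in the second. *Bdh1* then differed by 1.37 and 0.97 and *Acat1* by 0.78 and 0.73, all called and all above those shifts, and *Slc16a1* by 0.35 and 0.14, neither called.

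FGFR4 KD itself gave no call for any of the 3 genes on either diet, in limma-voom, edgeR or DESeq2, and 0 of 3 had an unadjusted p under 0.05. On HFD, *Bdh1* had a lower mean with KD, 201 against 249 CPM, but the groups overlapped and the log2 difference of -0.33 ± 0.16 (SE; interval -0.68 to 0.02; adjusted p = 0.486) did not pass. It was -0.17 (adjusted p = 0.803) without HFD/FGFR4 KD 1, the library that held the mean down. *Acat1* differed by -0.15 (interval -0.44 to 0.15; adjusted p = 0.767) and *Slc16a1* by 0.02 (interval -0.38 to 0.43; adjusted p = 0.980) and, without that library, by -0.11 and 0.21. None of the 3 was among the 3.14% of genes called in this comparison. In all 3, the mice with and without the siRNA overlapped.

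On chow the means with and without KD were nearer still for *Bdh1*, which differed by -0.05 (interval -0.40 to 0.31; adjusted p = 0.984). *Acat1* differed by -0.21 (interval -0.50 to 0.08; adjusted p = 0.976) and *Slc16a1* by 0.12 (interval -0.30 to 0.54; adjusted p = 0.980). The share of genes called in this comparison was 0.00883%, a single gene, *Fgfr4*. The test of whether the KD effect differed between the diets, which called 0.0353% of genes, gave -0.28 for *Bdh1* (interval -0.78 to 0.22), 0.07 for *Acat1* (interval -0.35 to 0.48) and -0.10 for *Slc16a1* (interval -0.68 to 0.48), with adjusted p from 0.857 to 0.979. These differences without HFD/FGFR4 KD 1 were -0.13, 0.11 and 0.085, none called. The KD and diet comparisons share libraries. Chow and HFD each serve the KD comparison on their diet and the diet comparison in saline-injected mice. Likewise, Chow/FGFR4 KD and HFD/FGFR4 KD each serve the KD comparison on their diet and the diet comparison in siRNA-injected mice.

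In the order of group means, *Bdh1* ran from HFD through HFD/FGFR4 KD and Chow to Chow/FGFR4 KD. The upper pair and the lower pair each overlapped, and HFD/FGFR4 KD met Chow only through HFD/FGFR4 KD 1 (143 CPM) and Chow 3 (146 CPM). *Acat1* had the same order of means, but 2 HFD/FGFR4 KD libraries, at 330 and 371 CPM, lay within the range of Chow, from 258 to 376 CPM. For *Slc16a1* no neighbours in the order differed beyond their spread, and all 4 means lay between 53.2 and 58.7 CPM.

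**Figure D2:**
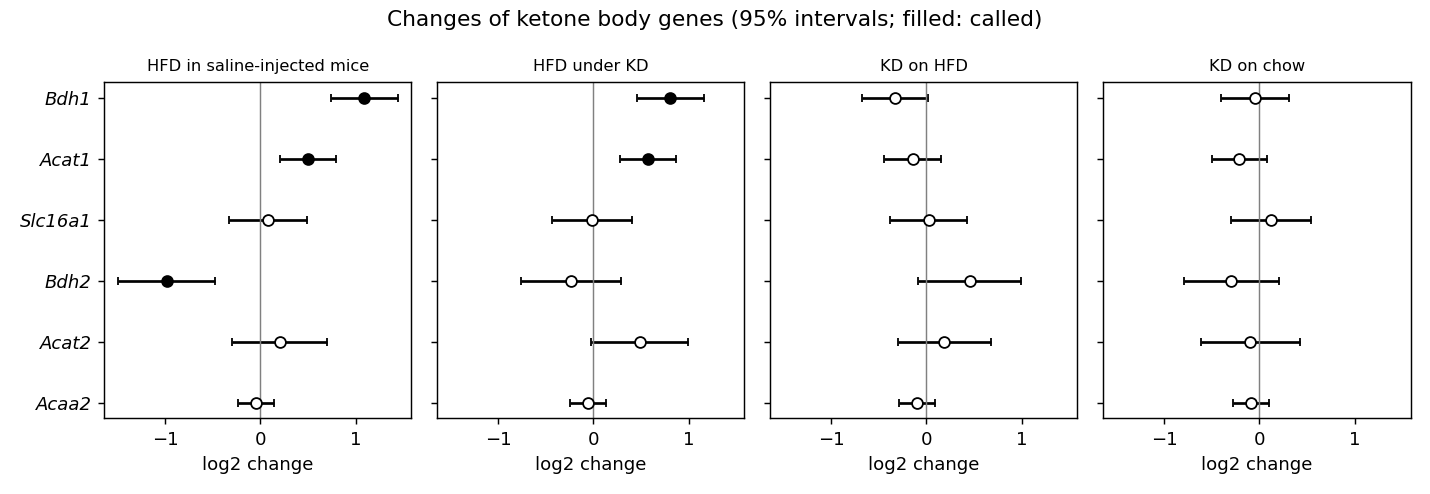
Log2 change of Bdh1, Acat1, Slc16a1, Bdh2, Acat2 and Acaa2 in 4 comparisons (limma-voom, n = 4 mice in each group; lines are 95% intervals, and filled circles are called). Bdh1 and Acat1 are called higher in both diet comparisons, Bdh2 is called lower in saline-injected mice, and no gene shown is called in either KD comparison.

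Ratios of the genes to one another within a library do not depend on scaling or depth. The ratio tests were chosen after the levels had been seen, and 4 libraries against 4 cannot give an exact two-sided p under 0.0286, and 12 ratio tests were made. The count of *Bdh1* over that of *Acat1* was 0.372 ± 0.035 in Chow and 0.558 ± 0.041 in HFD (SD, n = 4), without overlap (log2 difference 0.59, exact permutation p = 0.0286, adjusted 0.0857). In siRNA-injected mice it was 0.414 ± 0.025 on chow and 0.499 ± 0.11 on HFD and the groups overlapped (0.25, exact permutation p = 0.229, adjusted 0.305). *Bdh1* over *Slc16a1* went from 2.27 ± 0.69 to 4.53 ± 1.02 in saline-injected mice and from 1.99 ± 0.35 to 3.47 ± 0.33 in siRNA-injected mice, both without overlap (1.02 and 0.82, exact permutation p = 0.0286 for each, adjusted 0.0857). *Acat1* over *Slc16a1* separated the diets in siRNA-injected mice, from 4.78 ± 0.68 to 7.19 ± 1.67 (0.57, exact permutation p = 0.0286, adjusted 0.0857), but in saline-injected mice the ranges overlapped (0.43, exact permutation p = 0.143, adjusted 0.245). None of these ratios had an adjusted p under 0.05. Without HFD/FGFR4 KD 1, the diet differences in siRNA-injected mice were 0.36 for *Bdh1* over *Acat1*, 0.79 for *Bdh1* over *Slc16a1* and 0.42 for *Acat1* over *Slc16a1*.

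**Figure D3:**
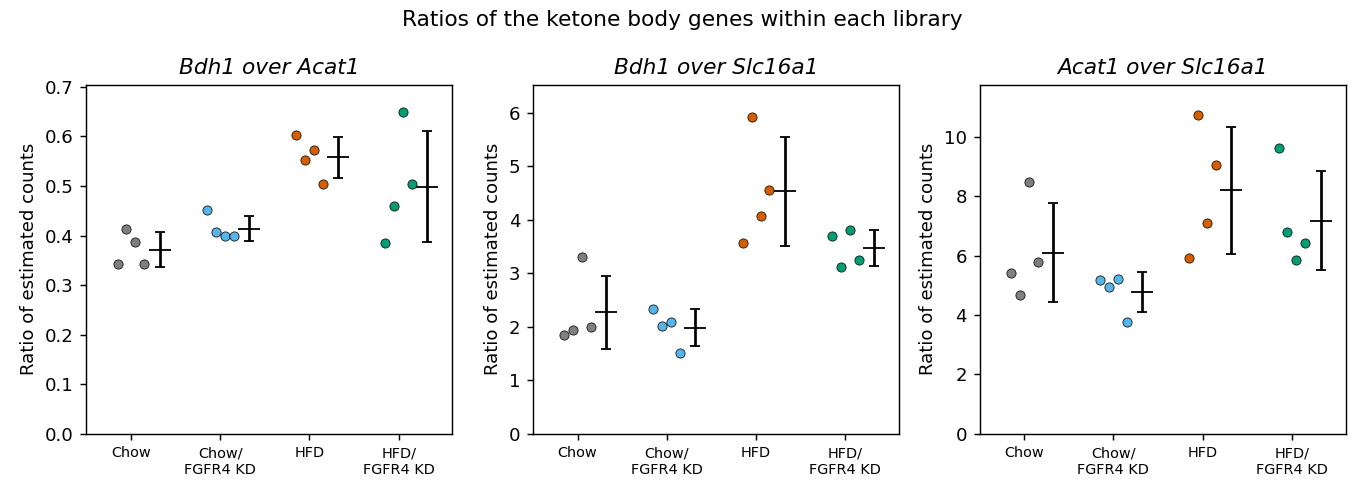
Ratio of estimated counts between pairs of genes within each library (linear axis from 0; circles are libraries, bars the mean ± SD, n = 4). Bdh1 over Slc16a1 lies between 1.51 and 3.30 in the chow-fed groups and between 3.13 and 5.93 in the HFD-fed groups.

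Set against transcript length, the 3 genes differed widely in level. In Chow, CPM per kilobase of the longest transcript was 93.4 for *Acat1*, 37.2 for *Bdh1* and 12.0 for *Slc16a1*, and in HFD 131, 78.9 and 13.0. On the same scale *Oxct1* stood at 0.635 and 0.753, below all 3.

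The 48 other genes listed for the pathway, of which 42 could be tested, moved mostly upward with diet. For HFD in saline-injected mice 17 were called higher and 6 lower, a share of 54.8% against 26% of all genes, and for HFD in siRNA-injected mice 17 were called higher and 3 lower, 47.6% against 20.2%. Their median log2 changes were 0.22 and 0.20, against 0.007 and -0.009 over all genes tested. With library totals the calls became 27 higher and 2 lower, and 22 higher and 1 lower. The diet comparisons have no library in common, and 15 genes were called in both, all in the same direction, which is 65.2% of the calls in saline-injected mice and 75% of those in siRNA-injected mice. The matching shares over all genes were not counted, so this agreement cannot be called particular to the list. FGFR4 KD on HFD called 2 of the 42, both lower (4.76% against 3.14% of all genes). KD on chow and the difference between diets called 0 of 42 in limma-voom, edgeR and DESeq2. In limma-voom, 9 of the 42 had an unadjusted p under 0.05 for KD on HFD, against 11% of all genes. For KD on chow 3 did, against 4.58%, and for the difference between diets 5, against 6.76%. Of the calls, 13 of 23 in saline-injected mice, 7 of 20 in siRNA-injected mice and 1 of 2 for KD on HFD held in every alternative and with each library left out. Without HFD/FGFR4 KD 1 the calls numbered 20 for HFD in siRNA-injected mice and 1 for KD on HFD.

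*Bdh2*, named for a likeness to *Bdh1* and encoding a cytosolic dehydrogenase, moved the other way. It fell from 12.8 ± 2.79 to 6.57 ± 2.71 CPM on HFD in saline-injected mice (-0.98, adjusted p = 0.017), although the groups overlapped, and was at 10.3 ± 2.34 and 8.74 ± 1.27 in siRNA-injected mice (-0.24, adjusted p = 0.638). The thiolase genes *Acat2* and *Acaa2* gave no call in any comparison. Of the transcript words of *Acat2*, 43.7% also occurred in another gene, so its counts are less certain. In ketone body use, *Oxct1* was low in every group, with means from 2.24 to 2.66 CPM and no call. *Aacs*, which activates acetoacetate in the cytosol for lipid synthesis, rose from 51.4 to 88.2 CPM in saline-injected mice (0.78, adjusted p = 0.089), a call lost without Chow 4 (0.59, adjusted p = 0.224, with p over 0.05).

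Among the carriers, *Slc16a7*, the gene of the related carrier MCT2, had the largest rise on HFD in saline-injected mice. It was at 26.9, 23.02, 47.1 and 31.3 CPM in Chow, against 99.8, 62.5, 112 and 79.9 in HFD. No HFD library came down to a Chow library, and the log2 change was 1.47 (interval 0.81 to 2.12; adjusted p = 0.00824). In siRNA-injected mice *Slc16a7* was at 37.7, 29.3, 33.4 and 19.1 CPM on chow and at 29.2, 75.9, 81.9 and 72.8 CPM on HFD, where HFD/FGFR4 KD 1 again sat with the chow-fed mice (1.04, adjusted p = 0.0896; 1.39, adjusted p = 0.00578, without it). *Slc16a12*, a creatine carrier gene, rose in both arms, from 34.9 ± 2.17 to 53.4 ± 9.68 CPM and from 35.9 ± 3.81 to 55.5 ± 10.2 CPM (SD, n = 4; 0.59 and 0.62, adjusted p of 0.0193 and 0.0384). The groups did not overlap in both arms, although with the siRNA they nearly touched (40.27 CPM on chow and 40.32 CPM on HFD). *Slc16a11* was called higher in both (0.60 and 0.97), the first of these lost without Chow 2 (0.46, adjusted p = 0.268) or HFD 3 (0.52, adjusted p = 0.236, with p over 0.05). *Slc16a6*, a carrier gene linked to export of ketone bodies from the liver, was called lower on HFD in siRNA-injected mice, from 11.9 ± 2.92 to 5.72 ± 1.39 CPM (-1.08, adjusted p = 0.0966). That call was lost without HFD/FGFR4 KD 3 (-0.85, adjusted p = 0.258), and the diet difference in saline-injected mice was 0.42 (adjusted p = 0.451). *Bsg*, whose product carries MCT1 to the membrane, stayed between means of 214 and 244 CPM with no call in any comparison. Without HFD/FGFR4 KD 1 the changes of *Slc16a12*, *Slc16a11* and *Slc16a6* in siRNA-injected mice were 0.76, 1.05 and -1.14, all called.

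**Figure D4:**
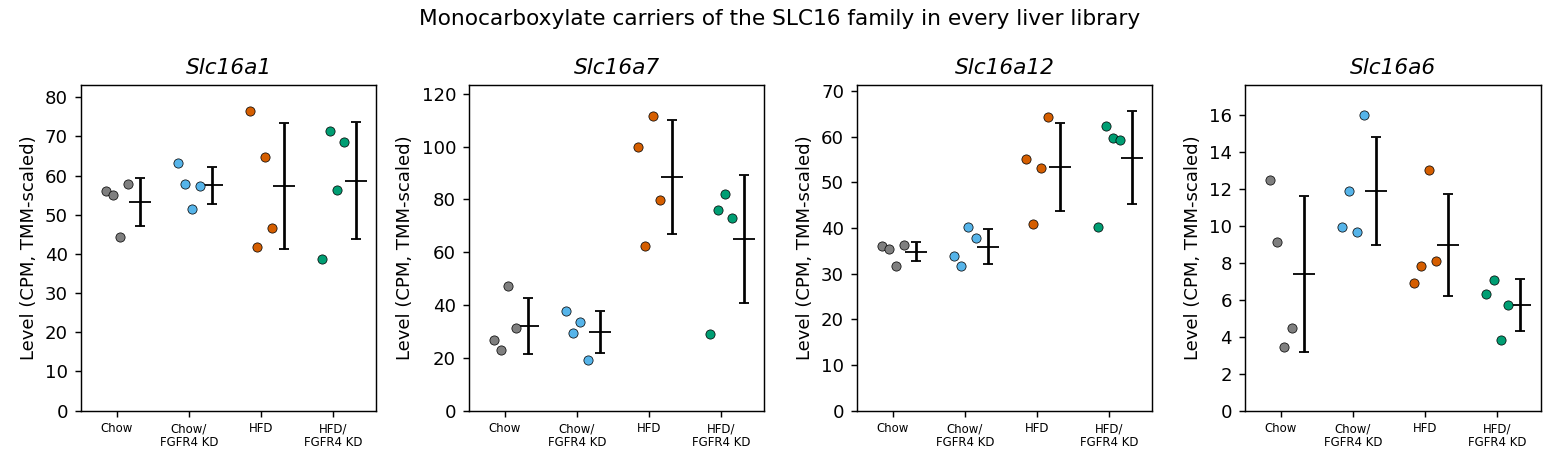
Levels of 4 carrier genes of the SLC16 family in every library (CPM, linear axis from 0; circles are libraries, bars the mean ± SD, n = 4). Slc16a1 shows no order by diet, while all HFD libraries of Slc16a7 (62.5 to 112 CPM) lie above all Chow libraries (23.02 to 47.1 CPM).

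The breakdown of leucine and isoleucine also feeds acetyl-CoA and acetoacetyl-CoA into the pathway. Of its 13 genes, 4 were called higher and 3 lower in saline-injected mice, 53.8% against 26% of all genes. In siRNA-injected mice 6 were called higher and 2 lower, 61.5% against 20.2%. *Acadsb*, which acts in isoleucine breakdown, was lower in both (-0.62 and -0.36, adjusted p of 0.00393 and 0.0994), and so was *Ivd* of leucine breakdown (-0.49 and -0.28, adjusted p of 0.0164 and 0.203), the latter call lost without 5 libraries. *Dbt* was lower in saline-injected mice (-0.33). *Bckdhb* (0.55 and 0.28), *Bckdha* (0.17 and 0.20), *Echs1* (0.25 and 0.25) and *Hsd17b10* (0.43 and 0.54) were called higher in both. *Bckdk*, the kinase that restrains the branched-chain dehydrogenase, and *Bcat2*, the mitochondrial aminotransferase, were called higher in siRNA-injected mice (0.45 and 1.002). *Bcat2* had an adjusted p of 0.0134 and held with each library left out. It rested on 19 to 40 counts per library in Chow/FGFR4 KD and 61.8 to 82 in HFD/FGFR4 KD. Of its transcript words 15.2% also occurred in other genes, 12.8% in 0610005C13Rik, so its counts are less certain. With HFD/FGFR4 KD 1 left out, the changes in siRNA-injected mice were -0.46 for *Acadsb*, -0.37 for *Ivd*, 0.29 for *Bckdhb*, 0.20 for *Bckdha*, 0.25 for *Echs1*, 0.47 for *Hsd17b10* and 0.98 for *Bcat2*, all called, and 0.41 for *Bckdk*, not called.

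Among 16 regulators and suppliers of fatty acyl groups, 7 were called higher and 2 lower in saline-injected mice, 56.25% against 26% of all genes. In siRNA-injected mice 7 were called higher and 0 lower, 43.75% against 20.2%. *Ppara*, the nuclear receptor that governs fasting gene expression in liver, rose by 0.61 and 0.65, and *Cpt1a*, which admits fatty acids to the mitochondrion, by 0.82 and 0.78 (adjusted p of 0.00174 and 0.00528). The beta-oxidation genes *Acadm* (0.48 and 0.39), *Acadl* (0.45 and 0.31) and *Hadh* (0.74 and 0.64) were called in both arms. *Hadha* and *Hadhb*, the subunits of the trifunctional protein, rose in saline-injected mice (0.27 and 0.30), and *Creb3l3* and *Cpt2* were called lower there (-0.23 and -0.19). In siRNA-injected mice *Sirt3* was called higher (0.24), as was *Fgf21*, a fasting hormone gene with 1 to 12 counts per library in Chow/FGFR4 KD and 11 to 54 in HFD/FGFR4 KD (2.59, adjusted p = 0.0393). Leaving out HFD/FGFR4 KD 1 gave changes in siRNA-injected mice of 0.57 for *Ppara*, 0.83 for *Cpt1a*, 0.43 for *Acadm*, 0.36 for *Acadl*, 0.76 for *Hadh* and 2.96 for *Fgf21*, all called, and 0.22 for *Sirt3*, not called. *Hadhb* and *Hadha* were the only list genes called for KD on HFD. *Hadhb* was at 221, 219, 226 and 210 CPM in HFD and at 137, 171, 152 and 139 CPM in HFD/FGFR4 KD, without overlap, and fell by 0.55 on the log2 scale (adjusted p = 0.018), or by 0.51 (adjusted p = 0.0757) without HFD/FGFR4 KD 1. Groups lay apart with KD below in 3.33% of genes. *Hadha* differed by -0.30 (adjusted p = 0.237), a call lost without any of 6 of the 8 libraries compared (-0.32 to -0.25), HFD/FGFR4 KD 1 among them. Of the transcript words of *Hadhb*, 23.7% also occurred in other genes, 19.5% in Gm13910, so its counts are less certain, as are those of *Bckdha* (54.6% shared) and *Slc16a6* (22.4% shared).

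**Figure D5:**
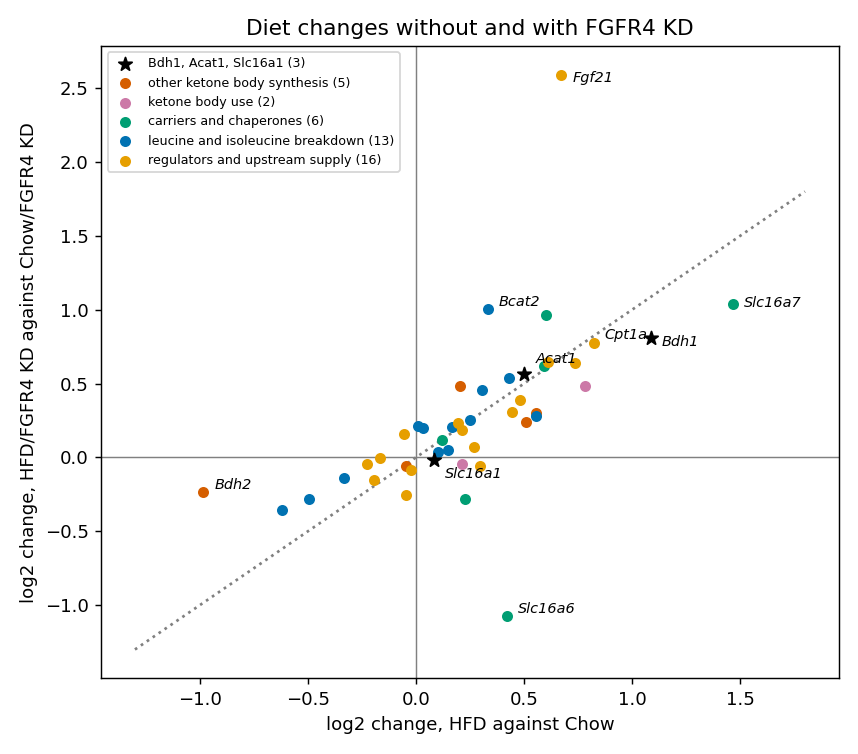
Log2 change with HFD in saline-injected mice (x axis) against that in siRNA-injected mice (y axis) for Bdh1, Acat1, Slc16a1 and the 42 other pathway genes tested, with 4 mice in each group; the dotted line marks equal change. Of the 42, 37 lie on the same side of 0 on both axes (not counted over all genes), and Slc16a6 is high on one axis (0.42) and low on the other (-1.08).

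Across the 16 libraries the gene whose log2 CPM followed *Bdh1* most closely was *Slc17a4*, an anion carrier gene, with a Pearson r of 0.97 among 8397 genes of at least 5 CPM on average. *Acadm*, *Mpc1*, *Hadh* and *Vnn3* came next, each at 0.97. For *Acat1* the nearest were *Stx2* (0.96), *Acadm* (0.95), *Plpp3* (0.94), *Hadh* (0.94) and *Slc47a1* (0.93). *Acadm* and *Hadh* stood among the nearest 5 of both enzymes. For *Slc16a1* likeness was weaker, led by *Acly*, which makes cytosolic acetyl-CoA from citrate, at 0.81, then *Qk* (0.77), *Rnd2* (0.76), *Diaph1* (0.76) and *Akap2* (0.75). *Bdh1* and *Acat1* had r = 0.90 with each other, while *Slc16a1* had 0.23 with *Bdh1* and 0.14 with *Acat1*. All points share the diet groups and with them the step between diets. Within the 8 chow-fed and the 8 HFD-fed libraries *Acadm* had r of 0.88 and 0.93 with *Bdh1*, and *Acly* had 0.58 and 0.89 with *Slc16a1*. In the chow-fed libraries the nearest 5 ran from 0.75 to 0.90 for *Bdh1*, 0.89 to 0.93 for *Acat1* and 0.19 to 0.58 for *Slc16a1*. In the HFD-fed libraries they ran from 0.93 to 0.96, 0.73 to 0.89 and 0.80 to 0.89. Without HFD/FGFR4 KD 1, r was 0.97 for *Slc17a4* with *Bdh1*, 0.96 for *Stx2* with *Acat1* and 0.83 for *Acly* with *Slc16a1*, while that of *Qk* with *Slc16a1* became 0.69 and that of *Rnd2* 0.66.

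Several other properties of the libraries moved with diet. The predicted gene Gm42418 held 13.4% to 22.7% of the counts in Chow and 11.1% to 15.6% in HFD, with overlap. It held 14.8% to 20.6% in Chow/FGFR4 KD and 13.7% to 22.3% in HFD/FGFR4 KD, the highest of that group in HFD/FGFR4 KD 1, and these ranges showed no step with diet. Of 11 clock genes tested, 9 were called in saline-injected mice and 10 in siRNA-injected mice (81.8% and 90.9%, against 26% and 20.2% of all genes). *Dbp*, whose mRNA swings over the day, ran from 0.397 to 8.35 CPM in the chow-fed libraries and from 13.7 to 77.9 CPM in the HFD-fed ones. All 7 markers of Kupffer cells and macrophages had higher means on HFD, 6 of them called in saline-injected mice and 2 in siRNA-injected mice. Over all genes tested, 13.3% and 10.1% were called higher and 12.7% and 10.1% lower in these comparisons. The summed level of the macrophage markers was 51.5 to 60.1 CPM in Chow, 94.9 to 170 in HFD, 63.9 to 84.1 in Chow/FGFR4 KD and 79.1 to 147 in HFD/FGFR4 KD. Of 6 stellate cell and fibroblast markers 3 and 1 were called higher (sums of 90.2 to 131, 149 to 264, 75.8 to 123 and 105 to 180 CPM in the same order). Of 7 hepatocyte markers 4 and 1 were called lower. Of 4 erythroid markers, 3 were called higher and 1 lower in saline-injected mice, and 0 higher and 1 lower in siRNA-injected mice. The sum of 5 adipocyte markers was 0.793 to 11.4 CPM in Chow, 10.9 to 24.6 in HFD, 0 to 3.37 in Chow/FGFR4 KD and 3.82 to 8.63 in HFD/FGFR4 KD. Of these *Lep* was at 0 in every library, and *Cfd*, the one tested, was called higher on HFD in both arms and lower for KD on HFD (-1.57). The part of the clock genes and of these cell types in the changes of *Bdh1* and *Acat1* was not tested, and in bulk liver fewer cells of a type and less RNA per cell cannot be told apart. For KD on HFD, 4 of the 11 clock genes were called, 2 in each direction (36.4%, against 3.14% of all genes). Of the 7 macrophage markers 0 were called in limma-voom, and 1 had an unadjusted p under 0.05, against 11% of all genes.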

How the data were processed

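The deposited table holds estimated counts per gene, which need not be whole, made by the authors with kallisto and tximport on the mouse transcriptome (GRCm38 per the labels; fastp is also named). Tool versions and the transcriptome release are not given in the sources used here. The labels name the KAPA mRNA HyperPrep kit, whereas the methods name another platform.

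Here, genes under 1 CPM in more than 4 libraries were left out, TMM factors from edgeR 4.0.16 scaled the rest, and limma-voom (limma 3.58.1, R 4.3.3) was fitted with a mean per group over all 16 libraries. Adjusted p-values cover all 11324 genes tested. Replicate numbers were not used. Library totals set the precision. The alternatives tried were DESeq2 1.42.0 on rounded counts and the quasi-likelihood test of edgeR, keeping every gene or those that reached 1 CPM in 4 libraries, library totals or upper quartiles as scaling, removal of Gm42418 and Lars2, weights for library quality, a fit to the compared groups alone, a block for replicate number, adjusted p under 0.05 and leaving out each library. Counts were also simulated with a log2 change of 1, in either direction, planted in KD on HFD. Of 197 changed genes among 11175 tested, 82.7% were recovered, and 27.6% of the 225 calls were false. That change is larger than the KD differences of *Bdh1*, *Acat1* and *Slc16a1*, so the share recovered does not carry over to them. Ratios were tested with exact permutation tests (scipy 1.17.1). Likeness used log2 CPM (prior count 2).

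Named genes are the 3 members, *Oxct1*, *Bsg*, list genes called in any comparison (some that the rule names are not reported here), and the 5 genes most like each member without predicted genes. *Fgfr4* is named as a check, and *Dbp*, *Lep*, *Cfd*, *Adipoq*, *Plin1* and *Retn* were chosen after their values were seen. Ratios and likeness without HFD/FGFR4 KD 1 were added after the data were seen. The members and lists were chosen with earlier results of these data known. Promoters are from RefSeq (GRCm38.p6).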

Additional observations from a re-analysis of the deposited data

Results flagged for a closer look

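*Bdh1* in HFD/FGFR4 KD 1 was at 143 CPM while the rest of its group lay between 214 and 223 CPM. The gap to the nearest library was 0.891 of the range of the group, which Dixon's gap test at 95% takes as far from the others in a group of 4. Of 32 groups examined in this way 1 passed, and chance alone would give about 1.6. The same library was the lowest of its group for *Slc16a1* (38.6 CPM) and *Slc16a7* (29.2 CPM) and not for *Acat1* (371 CPM).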

How the results depend on the processing

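*Bdh1* and *Acat1* were called higher on HFD in both arms under all 11 other settings (*Bdh1* 1.07 to 1.37 and 0.79 to 0.97, *Acat1* 0.48 to 0.78 and 0.54 to 0.73 on the log2 scale) and with each library left out (*Bdh1* 1.03 to 1.19 and 0.68 to 0.96, *Acat1* 0.40 to 0.59 and 0.46 to 0.66). No setting gave a KD call for the 3 genes. Small differences that were not called changed sign: *Slc16a1* for HFD in siRNA-injected mice with edgeR (0.026), DESeq2 (0.029), library totals (0.14), upper quartiles (0.025) and quality weights (0.071), *Slc16a1* for KD on HFD (-0.053) and *Acat1* for the difference between diets (-0.052) with library totals, and *Bdh1* for KD on chow with quality weights (0.019). With library totals the called falls of *Creb3l3* and *Cpt2* on HFD in saline-injected mice became 0.054 and 0.088, not called. With a library left out, KD on HFD ran from -0.40 to -0.17 for *Bdh1*, -0.23 to -0.05 for *Acat1* and -0.12 to 0.21 for *Slc16a1*, KD on chow from -0.18 to 0.077, -0.31 to -0.10 and 0.03 to 0.17, the difference from -0.41 to -0.13, -0.044 to 0.16 and -0.24 to 0.085, and the diet changes of *Slc16a1* from -0.072 to 0.22 and -0.12 to 0.17. The cause of these moves was not tested.

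The count of pathway genes called for KD on HFD, 2, became 1 with edgeR, library totals, upper quartiles, removal of Gm42418 and Lars2, and an adjusted p under 0.05, became 5 with quality weights, and ran from 1 to 4 with a library left out. At an adjusted p under 0.05 the counts were 14 for HFD in saline-injected mice and 7 in siRNA-injected mice, where leaving out a library gave 20 to 24 and 14 to 22. Deviations of same-numbered libraries had correlations from -0.286 to 0.233, within the range of libraries of different number (-0.422 to 0.405). With so few libraries this cannot show whether the numbers pair mice. With the replicate block the count for KD on HFD was 1 and *Bdh1* stood at 1.09, 0.81 and -0.33 in the diet comparisons and KD on HFD. Mean CPM moved with the scaling. With library totals *Bdh1* and *Acat1* in HFD were at 277 and 495. Without Gm42418 and Lars2 *Bdh1* was at 144 in Chow, 306 in HFD and 246 in HFD/FGFR4 KD, *Acat1* at 390 in Chow, 335 in Chow/FGFR4 KD, 547 in HFD and 499 in HFD/FGFR4 KD, and *Slc16a1* at 65.2 in Chow and 70.1 in Chow/FGFR4 KD, since fewer counts then make up the scaled total. Spearman correlation kept 2, 3 and 2 of the 5 nearest genes of *Bdh1*, *Acat1* and *Slc16a1*.

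Calls of pathway genes lost without at least 1 library, beside those given with the results, were *Bckdha*, *Hsd17b10* and *Cpt2* in saline-injected mice (5, 2 and 3 libraries) and *Bckdk*, *Sirt3*, *Bckdhb*, *Bckdha* and *Acadl* in siRNA-injected mice (6, 6, 4, 2 and 2 libraries).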
